A study of Bos taurus with 18 samples.

Results

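The genes described here are 121 microRNA genes of cattle whose array signal lay above the array median in tissue of the ovary. They are the genes that carried a single symbol beginning with MIR and a number, or with MIRLET, and whose brightest cluster had a mean log2 signal above 4.1 over all 18 arrays. A cluster is a group of probes for 1 transcript region, and 4.1 was the median of every array. Of 528 such microRNA genes, 126 passed this threshold and 401 of the rest lay at or below it and are given only as a background. MIR99A, MIRLET7C, MIR29C, MIR21, MIR143 and MIR145 were left out by name, and all 6 were lower in theca in these data, so the balance of higher and lower members below is that of the genes that remain. MIR145, with a mean of 4.00, would not have passed. The members were chosen by their measured signal, so their level is a description and not a result.

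MicroRNAs are short RNAs that guide Argonaute proteins to messenger RNAs, which are then repressed or degraded. They are cut from long primary transcripts, first in the nucleus by DROSHA with DGCR8 into a hairpin, which XPO5 exports, and then in the cytoplasm by DICER1 into the mature strand. Many lie in introns of protein-coding genes, and others lie in tandem groups that share 1 primary transcript. In the ovary, microRNAs are studied in follicle growth, atresia and steroid production.

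Ovaries were taken at an abattoir from Bos taurus cows that were not pregnant. Theca, the vascular and steroid-producing layer of the follicle wall, came from healthy small antral follicles below 5 mm, with 1 follicle and 1 animal for each of 6 arrays and RNA made with the RNeasy mini kit. Interstitial stroma, stroma close to follicles and the tunica albuginea, the fibrous layer under the surface, had 4 arrays each. These 3 tissues were cut by laser from 10 µm cortex sections stained with cresyl violet, each array held RNA pooled from different animals, and RNA was made with the RNAqueous-Micro kit. All RNA was amplified with the Ovation Pico WTA System V2 and labelled with biotin. Compartment, way of collection, pooling and RNA kit thus changed at once between theca and the other 3 tissues, and their shares in a difference cannot be told apart. Probes of a microRNA gene on such an array cannot tell a primary transcript, a hairpin and a mature microRNA apart, and the word signal below covers all of them.

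The labels were checked against marker genes. All 4 measured theca markers (INSL3, LHCGR, CYP11A1 and HSD3B1) were higher in theca, with a mean over the list of 9.33 to 10.1 on theca arrays and at most 3.38 on any other. Of 9 endothelial markers 7 were higher in theca (list mean 5.87 to 6.26 against 3.94 to 5.49). So were 5 of 5 granulosa markers (5.16 to 5.84 against 3.58 to 4.14) and 3 of 5 immune markers (4.96 to 5.46 against 3.32 to 4.94). Of the granulosa markers only INHA (theca mean 7.52) and INHBA (7.60) were bright in theca. FSHR and AMH had theca means of 4.38, near the array median, and CYP19A1 had 2.98, below it. Of 6 smooth muscle markers 5 were lower in theca and 1 higher (5.67 to 6.55 against 6.55 to 7.83), and 3 of 4 oocyte markers were lower, with the highest list mean, 4.60 to 6.55, in stroma close to follicles. The list means of red cell markers (3.20 to 3.60 in theca, 3.03 to 3.57 elsewhere) and epithelial markers (3.24 to 3.84 and 3.16 to 3.80) stayed below 4.1 on every array. Of 3 red cell markers 1 was higher in theca (HBB, 0.34, adjusted p = 0.0309). Of 5 epithelial markers 1 was higher (KRT18, 1.12, adjusted p = 0.00461), with a theca mean of 4.75 and up to 6.6 on an array, and 1 lower (MSLN, -0.23, adjusted p = 0.0495). These cell mixtures moved together with every comparison of theca below, and their part in it was not tested. In tissue of mixed cells, fewer cells of a type and less RNA per cell cannot be told apart.

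The members were dim as a group. Their means ran from 4.11 to 7.84 with a median of 4.83, on arrays whose values ran from 1.0 to 13.2. A mean below 5 was found for 68 members, a mean above 6 for 16 and a mean above 7 for 5. A low value can be background, since no detection call was used here. In 88 members the mean exceeded 4.1 in all 4 compartments, in 27 members in 3 of them, in 5 members in 2 and in 1 member, MIR2334, in theca alone. Of the 27, 16 exceeded 4.1 in all 3 laser-captured compartments and not in theca. Another 16 members exceeded 4.1 in theca but not in every laser-captured compartment. The first 16 passed the threshold only through the laser-captured tissues, which partly fixes the direction of their differences. Of the second 16 some, such as MIR2440 (laser-captured mean 4.075), passed only through theca, with the same effect. Others, such as MIR584-4 (4.31) and MIR2401 (4.25), had a laser-captured mean above 4.1. MIR2383 and MIR1284 of the second 16 had a lower mean in theca than in the laser-captured tissues. Of the 17 members with a theca mean at or below 4.1, 15 were lower in theca by the test described below.

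The 5 brightest members were MIR421 (mean 7.84), MIR2350 (7.74), MIR2308 (7.73), MIR2315 (7.43) and MIR2404-2 (7.07). No let-7 gene was among the members. The members just above the threshold were MIR1584 (4.11), MIR29B-1 (4.12) and MIR2334 (4.12), and the genes just below it were MIR125B-2 (4.09), MIR2443 (4.08) and MIR2339 (4.08). A large block of the members, 72 of 121, carried names numbered from MIR2284 to MIR2484, a range of microRNAs catalogued in cattle for which no roles are given here.

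The members spread more widely within a compartment than clusters at large, with no test of this difference. Their median pooled SD within compartments was 0.387, compared with 0.287 for all clusters above 4.1 and 0.259 for all clusters. By compartment, the median SD of the members was 0.294 in theca, 0.311 in interstitial stroma, 0.342 in tunica albuginea and 0.350 in stroma close to follicles. Over the members, the mean correlation between an array and its fellow arrays in a compartment ran from 0.613 to 0.858, against 0.956 to 0.974 over all clusters. The lowest was replicate 2 of stroma close to follicles, and all 6 theca arrays lay at 0.837 or above.

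Theca was first compared with the mean of the 3 laser-captured compartments. By limma with Benjamini-Hochberg adjustment over all 26773 clusters, 55 of the 121 members (45.5%) differed, 22 higher and 33 lower in theca. Among all clusters 41.9% differed (19.6% higher, 22.2% lower), and among clusters above 4.1 the share was 53.3% (29.8% higher, 23.5% lower). The share of members called was thus near the background. The median difference of the members was 0.02, and that of all clusters was -0.04. Of the 55, 16 (13.2% of the members) differed by at least 2-fold, 8 in each direction, and 39 by less. Among all clusters 9.75% did so (5.87% higher, 3.88% lower), and among clusters above 4.1 15.7% (9.21% and 6.45%), so the members' share lay between these backgrounds. The other 66 lay between -0.66 and 0.89.

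The split between higher and lower members depended on how arrays were scaled. The median of microRNA clusters was 2.90 to 3.10 on theca arrays, 3.10 to 3.15 in interstitial stroma, 3.05 to 3.20 in stroma close to follicles and 3.10 to 3.30 in tunica albuginea. When every array was set to the same microRNA median, each theca difference moved up by 0.18 and the split became 40 higher and 18 lower. When every array was set to the same 75th percentile, each moved by -0.10 and the split was 18 and 38. Both scalings moved all clusters in the same way. The shares of all clusters called at these scalings are not given here, so these splits have no background beside them. Differences near these sizes have no settled direction. The 10 largest differences of each sign kept both direction and call at either scaling. Among the 401 microRNA genes at or below 4.1, where background weighs most, 170 differed, 26 higher and 144 lower, with a median of -0.22.

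**Figure D1:**
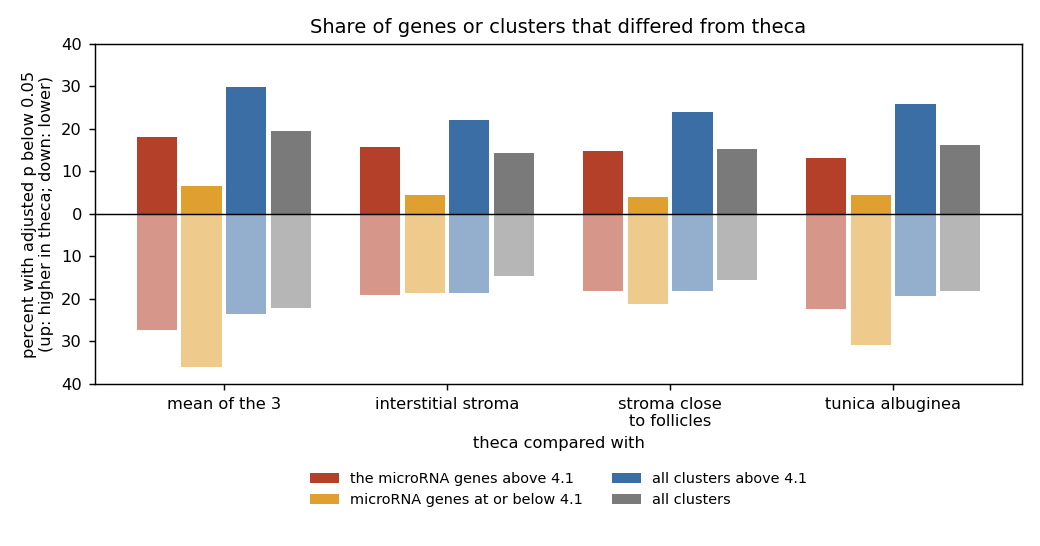
Percent of genes or clusters with an adjusted p below 0.05 in theca against the mean of the 3 other compartments and against each of them; bars above 0 are higher in theca, bars below 0 lower. In the comparison with the mean, 18.2% of the 121 members were higher and 27.3% lower, next to 6.48% and 35.9% of the 401 dimmer microRNA genes and 29.8% and 23.5% of all clusters above 4.1.

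**Figure D2:**
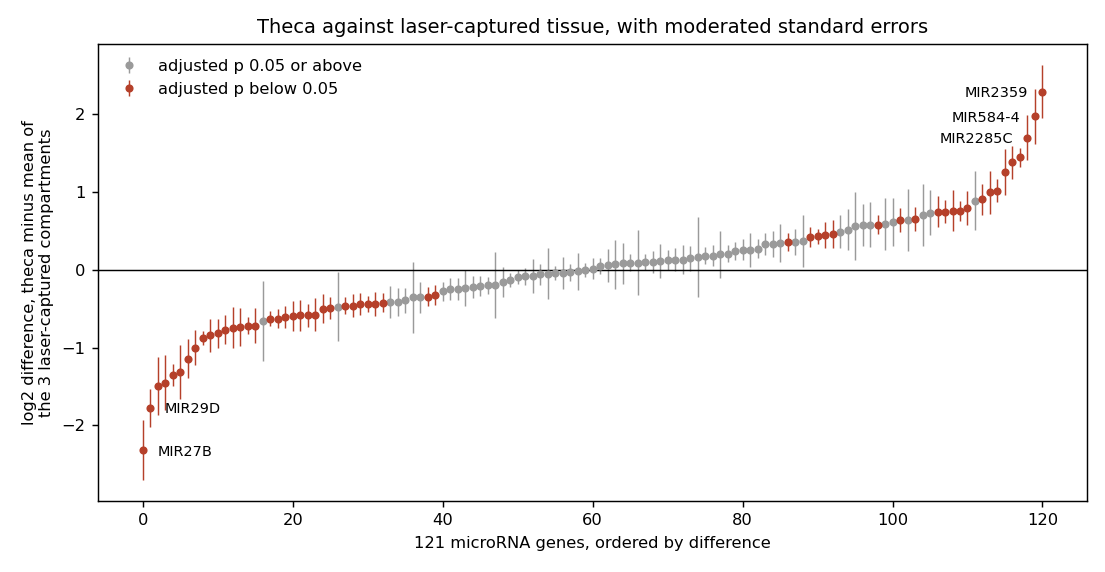
Log2 difference of each of the 121 members, theca minus the mean of the 3 laser-captured compartments, in order of size, with the moderated standard error as bars; red points had an adjusted p below 0.05. The differences run from -2.32 (MIR27B) to 2.29 (MIR2359), with 55 red points at both ends of the order and a few grey ones with wide bars among them.

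MIR2359 showed the largest difference on the theca side. Its theca arrays stood at 7.6, 7.95 and 8.2 (lowest, median and highest). Interstitial stroma gave 4.7, 3.7, 5.0 and 5.6, stroma close to follicles 6.1, 4.3, 5.6 and 7.3, and tunica albuginea 7.2, 6.0, 6.6 and 5.6. All theca arrays were above all others, and interstitial stroma held the lowest value. The difference was 2.29 ± 0.35 (SE), or 4.90-fold, with a limma adjusted p of 3.56e-05. MIR2359 lies within IL6ST, which encodes the shared signalling receptor of the interleukin-6 family. IL6ST itself was bright in all tissues, with 9.0 in theca and 9.07 elsewhere, a difference of -0.07 (adjusted p = 0.603).

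MIR584-4 was the second of these. Theca arrays stood at 6.1, 6.25 and 6.5. The values were 2.9, 4.4, 4.1 and 3.8 in interstitial stroma, 5.4, 2.8, 6.0 and 5.4 in stroma close to follicles, and 4.5, 4.7, 4.4 and 3.3 in tunica albuginea. Theca was above every other array by a narrow margin, and stroma close to follicles spread over more than 3 log2 units. The difference was 1.98 ± 0.35 (adjusted p = 0.000206). Cattle hold several copies of MIR584, whose sequences were not compared here, and whether they share signal was not tested. The copy MIR584-2 went the other way, at -0.72 ± 0.22 (adjusted p = 0.0156), and MIR584-7 differed by 0.33 (adjusted p = 0.0697). MIR584-4 lies within MAGI1, a scaffold of cell junctions, which had no named cluster here.

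MIR2404-2 combined a high signal with a small spread. Theca arrays stood at 7.8, 8.0 and 8.4. The values were 6.7, 6.6, 6.0 and 6.4 in interstitial stroma, 6.9, 6.6, 6.6 and 7.0 in stroma close to follicles, and 6.2, 6.7, 6.7 and 6.6 in tunica albuginea. The groups did not overlap, and the 3 laser-captured tissues lay together. The difference of 1.45 ± 0.12 had the smallest adjusted p of all members, 4.88e-08.

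MIR2285C stood at 5.6, 6.95 and 7.6 in theca and between 4.2 and 6.3 elsewhere, so that the groups overlapped, with a difference of 1.70 ± 0.29 (adjusted p = 0.000118). It lies in DOCK1, an activator of the GTPase Rac, which was also higher in theca, by 0.77 (adjusted p = 4.49e-06). MIR2401 lies in NGLY1, an enzyme that strips glycans from misfolded proteins. Its theca mean was 5.63 ± 0.56 (SD, n = 6). Tunica albuginea had 4.25 ± 0.51, interstitial stroma 4.43 ± 0.48 and stroma close to follicles 4.08 ± 0.15 (n = 4 each). The difference of MIR2401 was 1.38 ± 0.22 (adjusted p = 5.11e-05), while that of NGLY1 was 0.01 (adjusted p = 0.962).

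MIR2302 was higher by 1.02 ± 0.15 (adjusted p = 2.57e-05), at 4.9 to 6.0 in theca and 4.0 to 4.7 elsewhere, without overlap. MIR2303, in the cell cycle gene CDC16, was also without overlap, at 6.8 to 7.2 against 5.3 to 6.7, but differed by less than 2-fold (0.79 ± 0.22, adjusted p = 0.00685). CDC16 was higher in theca too, by 0.48 (adjusted p = 0.00691). The remaining members of the 10 largest positive differences overlapped with laser-captured arrays. They were MIR2465 (1.26 ± 0.30, adjusted p = 0.00219), MIR2362 (1.0 ± 0.28, adjusted p = 0.00728) and MIR2440 (0.91 ± 0.20, adjusted p = 0.0013). MIR2465 lies in the ubiquitin ligase gene FBXL17 (-0.23, adjusted p = 0.0514) and MIR2362 in the kinase gene LRRK1 (0.14, adjusted p = 0.238). MIR2440 lies in RPL3, a ribosomal protein gene with no named cluster here. The mean of MIR2440 over the laser-captured tissues was 4.075. MIR2440 thus passed the threshold of 4.1 only through theca, which partly fixed its direction.

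**Figure D3:**
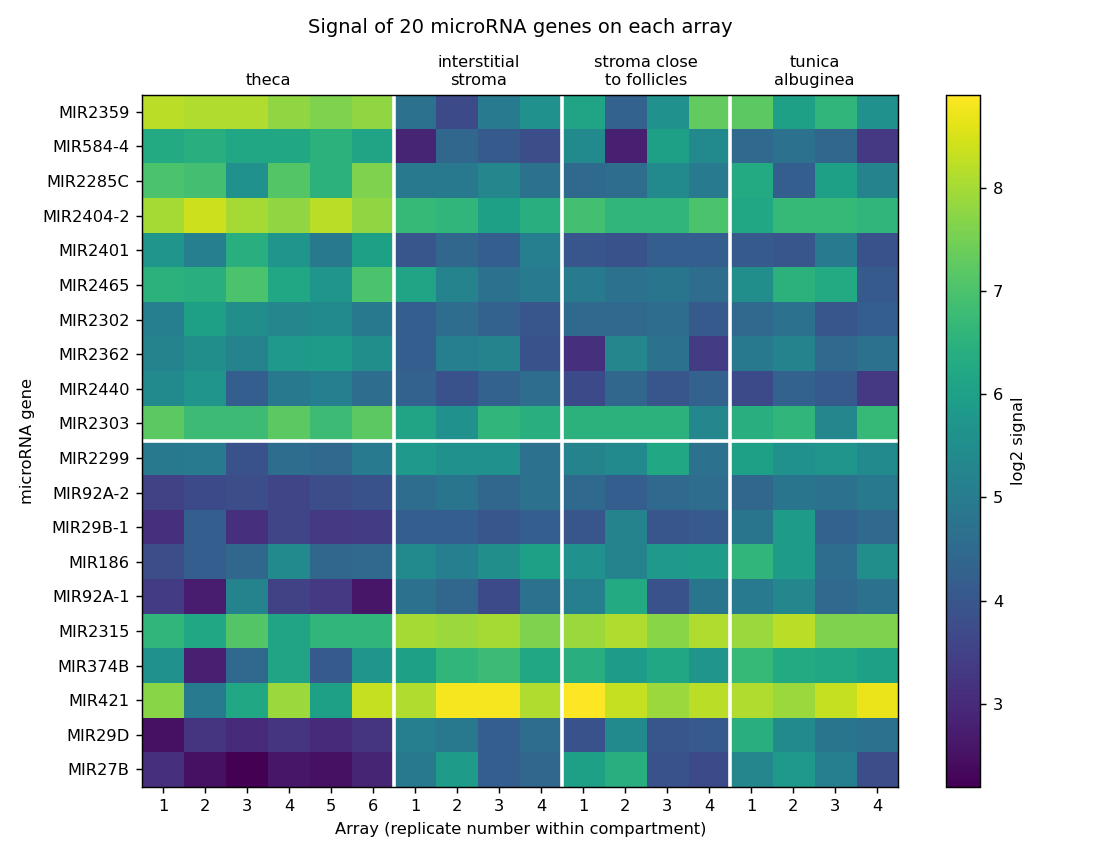
Log2 signal on each of the 18 arrays for the 10 members with the largest positive and the 10 with the largest negative difference between theca and the laser-captured mean among those with an adjusted p below 0.05; columns are arrays grouped by compartment, and white lines part compartments and directions. MIR2404-2 (7.8 to 8.4 against 6.0 to 7.0) and MIR2315 (6.1 to 7.1 against 7.6 to 8.2) show even colour within groups, while MIR421 spans 5.0 to 8.3 within theca.

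MIR27B had the largest difference on the other side. In mammals it is known for repressing PPARG and genes of lipid metabolism. Theca arrays stood at 2.2, 2.55 and 3.1. The values were 4.9, 5.9, 4.2 and 4.4 in interstitial stroma, 6.0, 6.4, 3.9 and 3.7 in stroma close to follicles, and 5.3, 5.8, 5.1 and 3.8 in tunica albuginea. All theca arrays were below 4.1 and below every other array, and stroma close to follicles fell into a high and a low pair. MIR27B thus passed the threshold only through the laser-captured tissues, and its direction was partly fixed by that choice. The difference was -2.32 ± 0.38 (adjusted p = 9.7e-05). MIR27B lies in the aminopeptidase gene AOPEP, which differed by -0.05 (adjusted p = 0.823) and lay below 4.1 in both.

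The neighbours of MIR27B within 10 kb were MIR23B, MIR24-1 and MIR2475. MIR23B (-0.43, adjusted p = 0.0121) and MIR24-1 (-0.73, adjusted p = 0.00127) were lower in theca as well, both with means below 4.1. The member MIR2475 varied widely, at 3.1 to 6.0 in theca and 3.4 to 7.2 elsewhere, and its difference of -0.66 ± 0.51 did not pass (adjusted p = 0.324).

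The microRNA-29 family, known in human and mouse for repressing collagens and other matrix genes, had 3 members here, and all 3 were lower in theca. Their theca means (3.02 for MIR29D, 3.45 for MIR29B-1 and 3.88 for MIR29A) were below 4.1, so they passed the threshold only through the laser-captured tissues and their direction was partly fixed by that choice. MIR29D stood at 2.5, 3.1 and 3.2 in theca. The values were 5.1, 4.9, 4.2 and 4.6 in interstitial stroma, 3.9, 5.4, 4.0 and 4.1 in stroma close to follicles, and 6.4, 5.4, 4.8 and 4.7 in tunica albuginea. Theca lay below all other arrays, and the tunica albuginea held the highest value. The difference was -1.78 ± 0.25 (adjusted p = 1.61e-05).

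MIR29A, at 3.7 to 4.2 in theca and 4.3 to 5.1 elsewhere, did not overlap either (-0.72 ± 0.11, adjusted p = 3.86e-05). MIR29B-1 differed by -1.0 ± 0.23 (adjusted p = 0.0017) and overlapped, at 3.1 to 4.2 against 4.0 to 5.9. MIR29A and MIR29B-1 are neighbours within the long non-coding RNA gene LOC107131356, which had no named cluster. MIR29D lies in LOC518224 (-0.26, adjusted p = 0.0102), and its neighbour MIR29E, below the threshold, was lower as well (-0.75, adjusted p = 3.64e-06). Mature microRNAs of this family are alike in sequence, so their signals may not be independent. The member left out by name, MIR29C, belongs to the same family.

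MIR421 and MIR374B, which in human and mouse lie in the same non-coding gene near the centre of X inactivation, behaved alike. MIR421 stood at 7.7, 5.0, 6.2, 7.9, 6.0 and 8.3 on theca arrays 1 to 6. The values were 8.1, 8.8, 8.8 and 8.1 in interstitial stroma, 8.9, 8.3, 7.9 and 8.2 in stroma close to follicles, and 8.1, 7.9, 8.3 and 8.7 in tunica albuginea. Theca replicates 2, 3 and 5 were low, and the other 3 reached or approached the remaining tissues, so the groups overlapped. The difference was -1.49 ± 0.38 (adjusted p = 0.00379), with an SD of 1.30 in theca and at most 0.42 elsewhere.

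MIR374B stood at 5.6, 2.8, 4.5, 6.1, 4.1 and 5.7 on theca arrays 1 to 6 and between 5.7 and 6.8 elsewhere. The same theca replicates 2, 3 and 5 were the lowest. The difference of MIR374B was -1.45 ± 0.35 (adjusted p = 0.00296). Each theca array was 1 animal, while the other arrays were pools, and the part of this in the wider spread was not tested. The cattle genes lie within 10 kb of each other in the long non-coding RNA gene LOC104970537, which had no named cluster.

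The microRNA-92 family had 3 members, of which MIR92A-1 and MIR92A-2 are known from growth-promoting gene groups, and all 3 were lower in theca. MIR92A-1 (theca mean 3.45) and MIR92A-2 (3.72) passed the threshold only through the laser-captured tissues, which partly fixed their direction, while MIR92B (4.45) was above 4.1 in theca too. MIR92A-2 stood at 3.5, 3.75 and 3.9 in theca. The values were 4.6, 4.8, 4.4 and 4.7 in interstitial stroma, 4.5, 4.2, 4.5 and 4.6 in stroma close to follicles, and 4.4, 4.8, 4.7 and 4.9 in tunica albuginea. The groups did not overlap although they lay close together, and the difference of -0.88 ± 0.10 had an adjusted p of 1.05e-06. MIR92A-1 overlapped, at 2.6 to 5.2 in theca and 3.7 to 6.3 elsewhere, with a difference of -1.31 ± 0.35 (adjusted p = 0.00541). MIR92B differed by -0.63 ± 0.12 (adjusted p = 0.000428). MIR92A-1 and MIR92A-2 may share signal, since their mature forms are the same in other mammals.

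MIR2315 was among the brightest members, with an SD of 0.356 in theca and at most 0.287 elsewhere. Theca arrays stood at 6.1, 6.6 and 7.1. The values were 8.0, 7.9, 8.0 and 7.6 in interstitial stroma, 7.9, 8.1, 7.7 and 8.1 in stroma close to follicles, and 7.9, 8.2, 7.6 and 7.6 in tunica albuginea. Theca was below all others, which differed little among themselves. The difference was -1.35 ± 0.14 (adjusted p = 3.93e-07), while RNF141, the gene around it, differed by -0.10 (adjusted p = 0.654).

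MIR186 (-1.14 ± 0.25, adjusted p = 0.00123) and MIR2299 (-0.84 ± 0.21, adjusted p = 0.00377) completed the 10 largest negative differences, and both overlapped with laser-captured arrays. MIR186 lies in ZRANB2, a splicing factor gene, which stood at 9.03 in theca and 9.03 elsewhere. MIR2299 lies in B3GLCT, a glycosyltransferase gene with no named cluster.

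**Figure D4:**
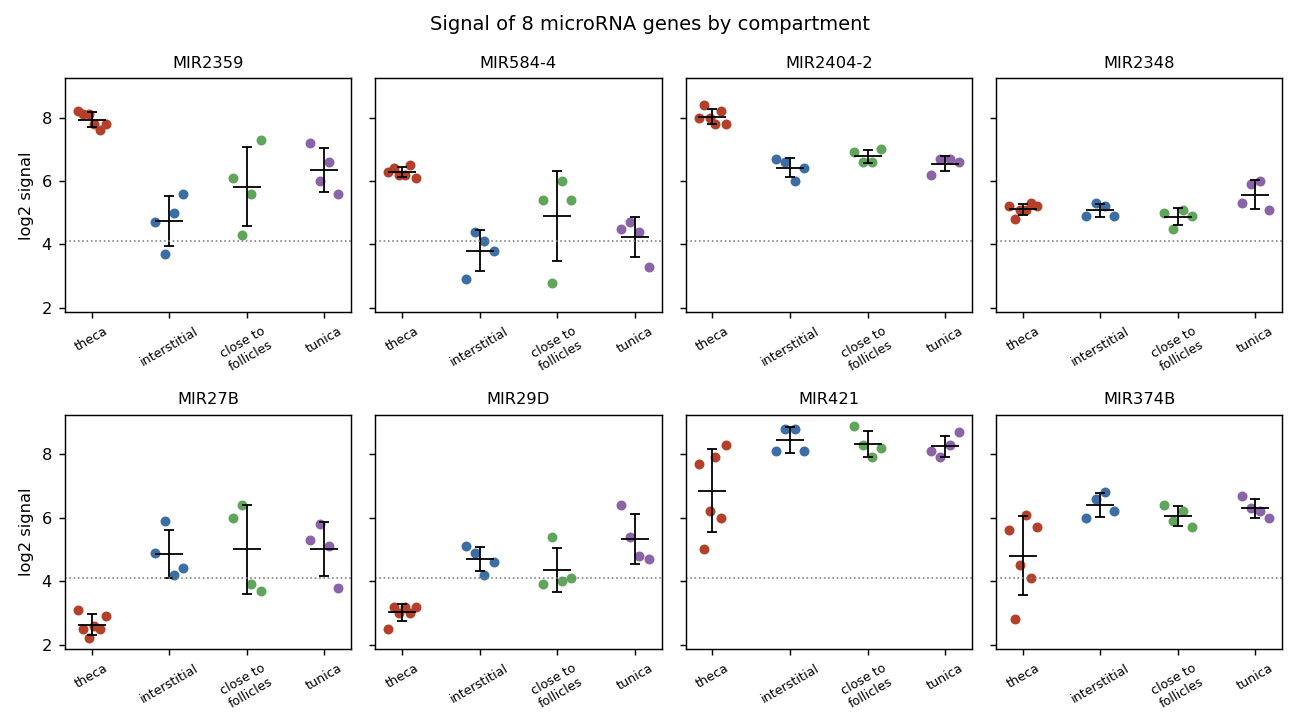
Log2 signal of 8 members by compartment; each point is 1 array, the long bar is the mean and the whiskers are 1 SD (6 theca arrays, 4 arrays in each other group), and the dotted line is the threshold of 4.1. MIR2359, MIR584-4 and MIR2404-2 lie above all other arrays in theca, MIR27B and MIR29D below them, MIR421 and MIR374B are spread within theca, and MIR2348 differs in tunica albuginea on some arrays only.

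Over all members, theca lay above every laser-captured array for 5 (4.13%) and below every one for 6 (4.96%), and overlapped for 110. Among all clusters the shares were 5.54% and 4.48%, and among clusters above 4.1 they were 9.34% and 6.68%. The 5 above were MIR2359, MIR584-4, MIR2404-2, MIR2302 and MIR2303. The 6 below were MIR27B, MIR29D, MIR2315, MIR92A-2, MIR29A and MIR376A. All of them except MIR2315 had a theca mean at or below 4.1. They passed the threshold only through the laser-captured tissues, which partly fixed their place below. MIR376A, of a large imprinted microRNA group in mammals, stood at 3.7 to 4.4 in theca and 4.5 to 4.9 elsewhere (-0.63 ± 0.09, adjusted p = 3.45e-05), and was singled out after its values were seen.

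Members numbered MIR2284 to MIR2484 and the remaining members were balanced differently, a split that was chosen after the values were seen and has no test. Of the 72 numbered members, 19 were higher (26.4%) and 10 lower (13.9%) in theca, next to 29.8% and 23.5% of all clusters above 4.1. The shares of all clusters were 19.6% higher and 22.2% lower. Their median difference of 0.20 was about the size of the scaling shift of 0.18. Of the other 49, only MIR99B, MIR326 and MIR584-4 were higher (6.12%), 23 were lower (46.9%) and the median was -0.28. Some of these 23, among them MIR27B, MIR29D and MIR29A, had a theca mean at or below 4.1. So did some numbered members, such as MIR2482 and MIR2370. Such members passed only through the laser-captured tissues, so the threshold itself made part of the balance in each group. MIR99B, which shares a gene group with let-7 and MIR125A genes in mammals, stood at 5.5 to 6.0 in theca and 4.5 to 5.6 elsewhere (0.76 ± 0.13, adjusted p = 0.000159). Its neighbours MIR125A (-0.17, adjusted p = 0.233) and MIRLET7E (-0.01, adjusted p = 0.951) lay below 4.1 and did not pass. Among the 88 members above 4.1 in all 4 compartments, 17 were higher (19.3%) and 18 lower (20.5%), with a median of 0.07. These shares lay near those of all clusters, 19.6% and 22.2%.

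Some of the brightest members did not pass the test in theca. MIR2350 had a theca mean of 7.87 ± 0.19 (SD, n = 6), with 7.65 ± 0.19 in tunica albuginea, 7.60 ± 0.25 in interstitial stroma and 7.80 ± 0.18 in stroma close to follicles (n = 4 each). The difference was 0.18 ± 0.11 (adjusted p = 0.177). MIR2308 stood at 7.2 to 7.7 in theca and 7.3 to 8.7 elsewhere (-0.39 ± 0.16, adjusted p = 0.0534). Near the threshold, MIR1584 (-0.22, adjusted p = 0.233) and MIR2334 (0.28, adjusted p = 0.0674) did not pass either. The largest difference that did not pass was that of MIR2369 (0.89).

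Each laser-captured tissue was then set against theca on its own, and these comparisons share the theca arrays. Theca differed from interstitial stroma in 42 members (34.7%), 19 higher and 23 lower, where 28.9% of all clusters (14.4% higher, 14.6% lower) and 40.6% of those above 4.1 (22.1% and 18.5%) did. Against stroma close to follicles 40 members (33.1%) differed, 18 higher and 22 lower, against 31.1% of all clusters (15.4% higher, 15.6% lower) and 42.2% of those above 4.1 (24.1% and 18.2%). Against tunica albuginea 43 (35.5%) differed, 16 higher and 27 lower, against 34.4% of all clusters (16.3% higher, 18.1% lower) and 45.2% of those above 4.1 (25.9% and 19.3%). At the same microRNA median on every array the splits were 28 and 13, 27 and 10, and 29 and 12 in that order. At the same 75th percentile the split against tunica albuginea was 11 and 36. No shares of all clusters at these scalings are given beside them. The F test over the 4 compartments called 44 members (36.4%), the same share as among all clusters (36.4%), and 49.1% of those above 4.1.

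A total of 24 members (19.8%) differed from theca in each of the 3 comparisons, 11 higher and 13 lower, where 18.8% of all clusters (10.2% higher, 8.57% lower) and 28.5% of those above 4.1 (16.4% and 12%) did. In at least 1 comparison 61 members (50.4%) differed, against 46.1% of all clusters and 58.3% of those above 4.1. Neither share of members lay outside the range of the backgrounds. The higher ones included MIR2359, whose difference was 3.18 from interstitial stroma, 2.11 from stroma close to follicles and 1.58 from tunica albuginea. MIR2404-2 differed by 1.61, 1.26 and 1.48 in the same order. Among the lower ones, MIR27B differed by -2.22, -2.37 and -2.37, and MIR2315 by -1.34, -1.42 and -1.29. Among these 4, only MIR2359 moved by more than 1 log2 unit between the comparisons, and its tunica albuginea minus interstitial stroma difference of 1.60 ± 0.49 did not pass (adjusted p = 0.128).

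The laser-captured tissues, which share collection and RNA kit, gave few calls among themselves in these genes. Between tunica albuginea and interstitial stroma no member passed, with 9 at an unadjusted p below 0.05 and a lowest limma adjusted p of 0.0832, while 1.52% of all clusters passed. Between stroma close to follicles and interstitial stroma no member passed either, with 3 at an unadjusted p below 0.05 and a lowest adjusted p of 0.391, while 0.0336% of clusters passed. Between tunica albuginea and stroma close to follicles 1 member passed (0.826%) and 10 had an unadjusted p below 0.05, while 3.80% of clusters passed. Members with an unadjusted p below 0.05 are not calls, and some would arise without any difference. The share of all clusters at that level is not given here. The p-values rest on 1 spread over all 18 arrays and would be too small if pools of a tissue shared animals.

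The member that passed was MIR2348. Tunica albuginea arrays stood at 5.3, 5.9, 6.0 and 5.1 and those of stroma close to follicles at 5.0, 4.5, 5.1 and 4.9. Interstitial stroma gave 4.9, 5.3, 5.2 and 4.9, and theca 4.8 to 5.3. Tunica albuginea replicates 2 and 3 were high, and the lowest tunica albuginea value equalled the highest of stroma close to follicles. The difference was 0.70 ± 0.19 (adjusted p = 0.0483). The call was lost in 20 of 27 other settings, including 14 of 18 fits that left out 1 array, with adjusted p from 0.0175 (without tunica albuginea replicate 4) to 0.2 (only the arrays of both tissues) over all settings. With 1 array left out, it was kept without theca replicate 2, stroma close to follicles replicate 3, tunica albuginea replicate 1 or tunica albuginea replicate 4. The difference itself ran from 0.56 (without tunica albuginea replicate 3) to 0.86. TMC6, the channel-like gene around MIR2348, did not pass in this comparison (0.225, adjusted p = 0.476).

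Some larger differences among the laser-captured tissues did not pass, and the genes concerned are named after their values were seen. MIR2369 stood at 4.7, 3.5, 6.0 and 6.2 in stroma close to follicles, 4.4, 3.9, 2.2 and 3.6 in interstitial stroma and 3.9, 2.8, 2.8 and 3.5 in tunica albuginea. Tunica albuginea minus stroma close to follicles was -1.85 ± 0.53 (adjusted p = 0.0607). It passed when only clusters above 4.1 were tested (adjusted p = 0.0462), without interstitial stroma replicate 3 (adjusted p = 0.0399) and without stroma close to follicles replicate 2 (-2.38, adjusted p = 0.0115). MIR2456 and MIR2356 differed between tunica albuginea and interstitial stroma by 1.68 (adjusted p = 0.229) and 1.38 (adjusted p = 0.0832). Without replicate 3 of interstitial stroma, in which MIR2456 stood at 5.3 against 2.2, 3.2 and 3.0 on the others, MIR2456 passed (2.30, adjusted p = 0.0453), as did MIR2356 (1.64, adjusted p = 0.0363). MIR2356 also passed without stroma close to follicles replicate 1 (adjusted p = 0.0462).

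Most members lie inside another gene. By the RefSeq table for the assembly ARS-UCD2.0, 99 of 121 members (81.8%) fell within the span of another gene, 89 in a protein-coding gene and 10 in long non-coding RNA genes alone, compared with 69.3% of the microRNA genes at or below 4.1. The table gives no strand here, so an overlapping gene need not be read in the same direction. For 78 members an overlapping gene was measured, 74 different genes in all. Probes of a microRNA gene inside an intron can also detect the unspliced transcript of the gene around it.

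Across these 78 pairs the theca differences of member and overlapping gene were weakly related (Pearson r = 0.18, Spearman rho = 0.18). This is a description across genes on the same arrays, and genes are not independent replicates. Of 32 pairs in which the member differed in theca, the overlapping gene also differed in 13 (40.6%), in the same direction in 10 (5 higher, 5 lower) and in the opposite direction in 3. In the other 19 the overlapping gene did not pass, and in 27 of the 46 pairs in which the member did not pass (58.7%) the overlapping gene did. Overlapping genes thus differed in 40 of the 78 pairs (51.3%), next to 41.9% of all clusters and 53.3% of those above 4.1.

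**Figure D5:**
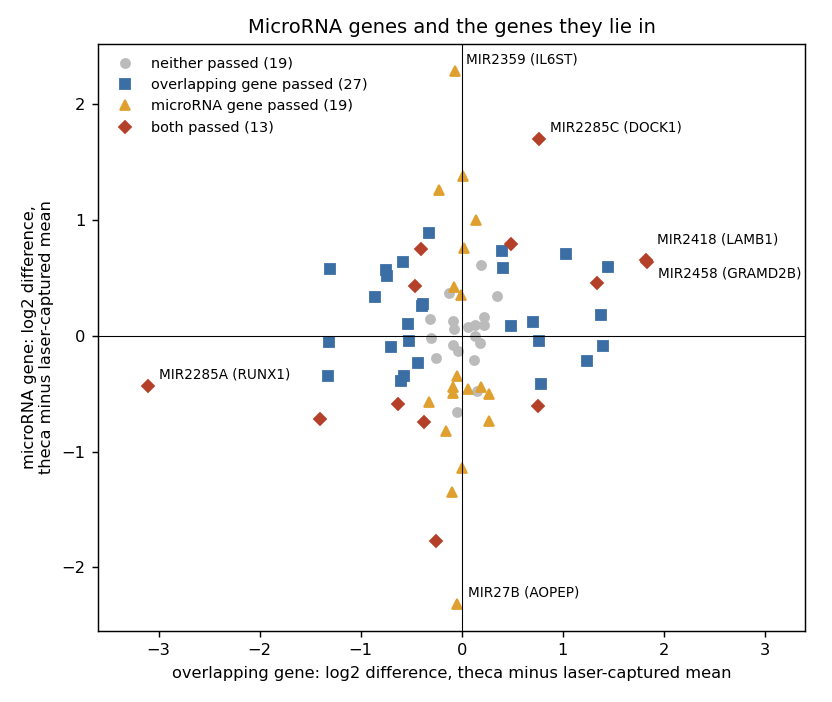
Theca minus laser-captured log2 difference of 78 members (vertical axis) against that of the gene each lies in (horizontal axis); marks show which of the pair had an adjusted p below 0.05. MIR2359 and MIR27B lie far from 0 on the vertical axis while IL6ST and AOPEP lie at -0.07 and -0.05, and RUNX1 lies at -3.10 while MIR2285A lies at -0.43.

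Pairs at the ends of these groups were picked after their values were seen. MIR2418 (0.66 ± 0.16, adjusted p = 0.00238) lies in LAMB1, a laminin chain of basement membranes, which stood at 9.62 in theca and 7.79 elsewhere. MIR2458 (0.64 ± 0.15, adjusted p = 0.00228) lies in GRAMD2B, at 6.93 and 5.10. MIR2285A (-0.43 ± 0.16, adjusted p = 0.0314) lies in RUNX1, a transcription factor gene that stood at 4.53 in theca and 7.63 elsewhere, and its own difference was far smaller than that of RUNX1 (-3.10). In these 3 pairs both genes moved the same way.

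The opposite directions were found for MIR2364 (0.75) in ZNF592 (-0.40), MIR2387 (0.43) in GTF2IRD1 (-0.46) and MIR324 (-0.61) in ACADVL (0.75), an enzyme of fatty acid oxidation. MIR483 (-0.08, adjusted p = 0.556) did not follow IGF2, the growth factor gene around it, which was higher in theca by 1.40 (adjusted p = 1.14e-05). Likewise MIR2350 did not pass while BIN1, a membrane-shaping gene, was higher by 1.38 (adjusted p = 9.68e-06). For MIR2308 the surrounding ARHGAP39 was lower (-0.60, adjusted p = 0.000127).

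Members also lie next to other microRNA genes. Within 10 kb, 22 members had another microRNA gene and 12 had another member. Around MIR92A-1, the growth-promoting neighbours MIR17 (-0.61, adjusted p = 0.000715), MIR18A (-0.78, adjusted p = 0.000127), MIR19A (-1.03, adjusted p = 0.00438) and MIR20A (-1.15, adjusted p = 2.21e-05) were lower in theca, and MIR19B did not pass (-0.48, adjusted p = 0.389). Around MIR92A-2, MIR106A (-0.32, adjusted p = 0.00406) and MIR363 (-0.26, adjusted p = 0.0357) were lower, while MIR18B (-0.28, adjusted p = 0.258) and MIR20B (-0.23, adjusted p = 0.198) did not pass. All of these neighbours had means below 4.1, where the scaling shift of 0.18 is a sizeable share of the smaller differences.

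The genes that make and use microRNAs were read beside them. Of 32 listed genes 30 were measured, and 16 (53.3%) differed in theca, 9 higher and 7 lower, with a median of 0.00. The same share, 53.3%, was found among all clusters above 4.1, and 41.9% among all clusters. RAN, the GTPase that powers nuclear export, was higher by 1.39 ± 0.09 (adjusted p = 1.54e-09), NCBP2, a part of the nuclear cap-binding complex, by 1.03, the nuclear exonuclease XRN2 by 0.67, the helicase DDX5 by 0.62 and the hairpin exporter XPO5 by 0.38 (adjusted p = 0.0196). TNRC6C, which links Argonaute to silencing, was lower (-1.41 ± 0.12, adjusted p = 4.98e-08), as were KHSRP (-0.93), an RNA-binding factor of processing, and the Argonaute gene AGO1 (-0.53). The cutting enzymes did not pass, with -0.01 for DROSHA and -0.03 for DICER1, nor did AGO2 (-0.20). None of the 30 passed between laser-captured tissues. TERC, the telomerase RNA and the only measured non-coding RNA outside the microRNAs on the lists, was higher in theca by 0.96 (adjusted p = 0.000321).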

How the data were processed

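Gene signal was measured on 18 single-colour arrays of bovine ovary. The deposited values are log2 signals with 1 decimal, made by the authors with RMA (background correction, quantile normalization and probe summary) and Partek 6.5, per the submitters' processing notes. The sources used here do not give the array design or genome build. Quantile normalization removes a change common to most genes. Precision is limited by the number of arrays.

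Groups came from the sample titles. Clusters were named through the platform's annotation, clusters with several symbols were not used (32 of microRNA genes), and the brightest cluster stood for a gene. All 121 members matched the RefSeq gene table (ARS-UCD2.0), which gave only names, overlaps and neighbours within 10 kb. Its lack of strand meant that overlap was taken without it, and groups by seed were not formed because no microRNA sequences were used here.

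Differences were fitted with limma 3.58.1 in R 4.3.3: 1 mean per compartment over 18 arrays, moderated two-sided tests, Benjamini-Hochberg adjustment over 26773 clusters, and an adjusted p below 0.05 as a call. The fit was tested on simulated data. SE is the moderated standard error and SD the spread of arrays. Replicates are the labels' separate samples. Replicate numbers were not taken as pairs. Alternatives were a replicate block, a filter at 4.1, variance trend with robust moderation, array weights, 2 scalings, the mean of a gene's clusters, smaller sets of arrays, and each array left out.

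The members and gene lists were chosen with earlier results of these data known. Named members are the 10 largest called differences of each sign in theca, those called between laser-captured tissues, the 5 brightest, the 3 on either side of the threshold, and members within 10 kb of these. Other members named were chosen after their values were seen. Of the processing list, DGCR8 and KSRP had no matching cluster, and TERC alone was measured among the listed non-coding RNAs outside the microRNAs.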

Additional observations from a re-analysis of the deposited data

Results flagged for a closer look

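In 108 groups of arrays of the named members, the lowest or highest array was set against the rest of its compartment. By Dixon's criterion 7 arrays stood apart, where chance nominally gives about 1 in 20 groups. Values with 1 decimal often tie, so this nominal rate need not hold here. MIR92A-1 stood at 5.2 on theca replicate 3 and at 2.6 to 3.5 on the other theca arrays. MIR29D stood at 2.5 on theca replicate 1 and at 3.0 to 3.2 on the others. In stroma close to follicles, replicate 2 was high for MIR29D (5.4, others 3.9 to 4.1) and for MIR29B-1 (5.2, others 4.0 to 4.1). Replicate 4 of that tissue was low for MIR2303 (5.3, others all 6.5). In interstitial stroma, replicate 3 was low for MIR29B-1 (4.0, others all 4.2) and high for MIR2475 (5.2, others 4.3 to 4.4).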

How the results depend on the processing

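Of 21 named members called in theca, 20 kept their direction and call in all 25 alternatives, and MIR92A-1 lost it under the replicate block alone (-1.06, adjusted p = 0.0775). The counts of members called in the 4 comparisons of theca and in the F test stayed within 1.5 times in every alternative. With 1 array left out they ran from 47 to 57 for the laser-captured mean, 30 to 44 for interstitial stroma (lowest without its replicate 1), 29 to 42 for stroma close to follicles (lowest without its replicate 2), 31 to 42 for tunica albuginea and 32 to 47 for the F test. Between tunica albuginea and stroma close to follicles the count of 1 became 2 with clusters above 4.1 alone, and 0 with the replicate block, with variance trend and robust moderation, at the same microRNA median, at the same 75th percentile, with the arrays of these tissues alone and with the laser-captured arrays alone. It ran from 0 to 3 with 1 array left out. Leaving out 1 array gave 0 to 2 calls between tunica albuginea and interstitial stroma, and 0 to 0 between stroma close to follicles and interstitial stroma. The theca difference of MIR2348 (-0.06, not called) turned to 0.125 at the same microRNA median, and ran from -0.111 to 0.005 (without theca replicate 2) with 1 array left out. MIR2308 passed in 9 alternatives, MIR2334 in 3 and MIR2350 in 1. The causes were not tested.

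The replicate block gave 46 calls for the laser-captured mean, 23 in each direction, and 33, 30 and 34 against the 3 tissues. Of the 46, 43 were also called without it. The shares of all clusters called under the block are not given here. Deviations from the compartment mean correlated at -0.048 to 0.145 between arrays with the same number, and the labels do not state that the numbers pair arrays. Same-numbered arrays of interstitial stroma and tunica albuginea correlated at 0.095 to 0.145, and all 8 correlated best with their own number, which is a hint from the data and not from the design.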
